A study of Mus musculus with 40 samples.

Results

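The cathepsins and the LAMP proteins belong to the lysosome, and the RNA of 10 of their genes was followed here through mouse hippocampus in which neurons were given Cre to remove the histone variant H2A.Z. The genes are Ctsa, Ctsb, Ctsc, Ctsd, Ctsh, Ctsl, Ctss, Ctsz, Lamp1 and Lamp2. They were taken by symbol from a table of RNA-seq read counts that lists 40853 genes, all 10 were found in it, and all 10 are among the 28449 genes that were tested. One library was made from the hippocampus of each of 40 mice, and the mice fell into 10 groups of sex and virus.

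All mice were floxed at the genes of both forms of H2A.Z and received AAV by stereotaxic injection into the hippocampus. H2A.Z.1 WT mice received Cre under the Synapsin promoter, which is active in neurons, together with 3xMyc-tagged wild-type H2A.Z.1 (4 females, 5 males). H2A.Z.1 KA mice received Cre with H2A.Z.1 whose acetylated lysines were changed to alanine, which cannot be acetylated (4 females, 4 males), and H2A.Z.1 KQ mice received Cre with H2A.Z.1 whose lysines were changed to glutamine, which resembles acetylated lysine (3 females, 5 males). H2A.Z KO mice received Cre with 3xMyc alone (4 females, 4 males); the GEO labels name these mice H2A.Z.1/H2A.Z.2 KD. Myc mice received 3xMyc virus mixed with buffer and no Cre virus (3 females, 4 males), and the labels give their genotype as WT. A difference from Myc mice therefore holds the Cre virus as well as the deletion, and these cannot be told apart, whereas the replacement groups and H2A.Z KO mice all received Cre. The H2A.Z.1 constructs were driven by the CMV promoter with a GFP reporter, and the age of the mice is not given in the sources used here.

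Cathepsins are proteases that break down proteins in the acidic lumen of the lysosome. They are made as inactive precursors, carried to the lysosome by mannose 6-phosphate tags or other sorting signals, and activated there by cleavage. LAMP1 and LAMP2 are heavily glycosylated proteins that cover the inner face of the lysosomal membrane, and LAMP2 also takes part in fusion of autophagosomes with lysosomes and in chaperone-mediated autophagy. In brain every cell type holds lysosomes, and microglia, the resident phagocytes, hold many of them and express cathepsin S as a characteristic protease. Transcription factors of the MiT-TFE family, TFEB among them, bind a short element called CLEAR that is shared by many lysosomal promoters, and the myeloid factor PU.1 controls many genes of microglia and macrophages.

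Because the members moved together, the letters that such factors recognise were looked up in their promoters, taken as the 250 bases before and the 50 bases after each RefSeq start site on GRCm38.p6, an older build than the one behind the counts. Promoters of 8 members were matched and those of Ctsb and Ctsh were not. A member was counted when any of its promoters held a match, whereas the shares of all promoters are per promoter. Ctsa had a further promoter, chr2:164832622-164832921, that held none of the matches given below. The windows below, given 5′ to 3′ on the strand of the gene, hold the matches in capitals with up to 20 bases on each side. The CLEAR core (TCACGTGA, which reads the same on both strands and contains the E-box CACGTG) was found in 2 of the 8, once in Ctsd and at a pair of sites around the start of Ctsa, against 0.974% of 32851 RefSeq promoters.
Ctsa, chr2:164833740-164833804, plus strand: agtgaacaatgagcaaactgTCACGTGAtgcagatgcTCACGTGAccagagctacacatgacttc
Ctsd, chr7:142387899-142387946, minus strand: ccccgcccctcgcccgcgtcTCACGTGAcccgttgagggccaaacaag

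The plain E-box, CACGTG, stood in a promoter of 4 of the 8 members, Ctsa, Ctsd, Ctsl and Lamp1, against 7.15% of all promoters. Lamp1 held 4 copies in its last 61 bases before the start.
Lamp1, chr8:13159080-13159171, plus strand: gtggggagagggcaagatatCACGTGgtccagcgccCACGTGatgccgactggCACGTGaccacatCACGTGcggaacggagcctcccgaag
Ctsl, chr13:64370731-64370770, minus strand: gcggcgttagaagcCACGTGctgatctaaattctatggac

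The PU.1 core (GAGGAAGT, or ACTTCCTC on the other strand) was found in Ctsc and Ctss, against 3.20% of all promoters. In Ctss it lay beside a match to the letters bound by interferon regulatory factors (GAAA and again GAAA, 2 free bases apart), which Lamp1 also held and which 3.44% of all promoters hold on either strand. A match to the letters of STAT dimers (TTCNNNGAA, 8.30% of all promoters) was found in Ctsc alone, and none of these motifs in the windows of Ctsz and Lamp2. These matches describe letters in a window and say nothing of what is bound there.
Ctss, chr3:95526745-95526811, plus strand: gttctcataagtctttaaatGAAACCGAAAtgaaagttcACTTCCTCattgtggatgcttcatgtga
Ctsc, chr7:88277914-88277961, plus strand: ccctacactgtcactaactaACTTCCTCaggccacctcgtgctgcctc

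Library totals ran from 24342921 to 45982772 counts with a median of 36417111. In single mice the members' raw counts ran from 255 (Ctsh) to 113033 (Ctsd). Counting error was therefore small beside the changes between KO and Myc mice, though not beside every spread within a group. The levels of H2az1, which encodes H2A.Z.1, overlapped between KO and Myc mice, at 28.1 to 36.3 CPM (counts scaled to a common library total) in female KO mice and 28.1 to 34.5 in female Myc mice, and 17.7 to 37.6 CPM in male KO mice and 27.0 to 37.2 in male Myc mice (adjusted p = 0.828 and 0.841, edgeR's quasi-likelihood test). For H2az2 KO over Myc gave log2 fold changes of 0.28 (females) and 0.14 (males) (adjusted p = 0.0609 and 0.350, edgeR). KO females had 26.19 to 29.97 CPM of H2az2 and Myc females 19.37 to 25.98, and the ranges of males overlapped. The paper reports lower mRNA of both genes in KO than in control hippocampus, which these counts do not show. Cre was restricted to neurons by its promoter while the counts sum all cell types and exons of a gene. The reason for the difference from the paper was not tested, and these values alone do not check the labels. The 12 neuronal markers, among them Snap25 and Camk2a, had counts in mice of every group. Tests below are edgeR's quasi-likelihood test in one model of the 10 groups, with p-values adjusted by Benjamini-Hochberg over all 28449 genes; levels are CPM after TMM scaling, fold changes are of the model, and errors are SE unless SD is named.

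Deletion of H2A.Z was compared with Myc first. All 10 members were higher in KO than in Myc mice in both sexes, and in no member did the KO and Myc mice of a sex overlap. Overlap was not counted over all genes, so it has no share to be read against. Of all genes tested, 18.1% passed in the same direction in females and 17.2% in males. Over the 10, log2 fold changes had medians of 2.01 (females) and 1.93 (males), against 0.00305 and 0.0269 over all genes. Cathepsins S, Z, H, D and C changed most, by 5.51 to 7.56 times in females and 5.69 to 11.2 times in males, while Ctsa, Ctsb, Ctsl, Lamp1 and Lamp2 changed by 1.96 to 2.95 times. In bulk tissue, more cells of a type and more RNA per cell cannot be told apart.

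Cathepsin S is a cysteine endopeptidase that stays active near neutral pH and trims the invariant chain during antigen presentation. Ctss had 1019, 928.0, 569.2 and 921.1 CPM in female KO mice, against 177.6, 83.55 and 79.11 CPM in female Myc mice. In males it had 1005, 1194, 1152 and 817.8 CPM in KO mice, against 85.48, 109.1, 74.98 and 101.2 CPM in Myc mice. Even the lowest KO mouse of each sex lay several-fold above the highest Myc mouse. Its log2 fold change came to 2.92 ± 0.36 in females (adjusted p = 2.4e-07) and 3.49 ± 0.33 in males (adjusted p = 8.3e-10), the largest of the 10 in each sex.

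Cathepsin B and cathepsin L are the other cysteine endopeptidases among the members. Cathepsin B also removes dipeptides from the carboxyl end of its substrates and is abundant in most cells. Ctsb had 1586, 1497, 967.4 and 1199 CPM in female KO mice, against 520.1, 583.9 and 444.5 CPM in female Myc mice. Among males Ctsb had 1198, 1821, 1271 and 873.4 CPM in KO mice, against 458.8, 586.9, 486.8 and 478.7 CPM in Myc mice. The groups were apart for Ctsb too, by less than for Ctss. For Ctsb the change came to 1.35 ± 0.20 in females (adjusted p = 2.5e-06) and 1.36 ± 0.18 in males (adjusted p = 2.5e-07). Ctsl had 282.0, 263.0, 182.6 and 178.2 CPM in female KO mice, against 83.28, 80.75 and 66.29 CPM in female Myc mice. In male KO mice it had 229.3, 307.4, 143.8 and 154.1 CPM, against 81.05, 82.45, 80.05 and 83.91 CPM in male Myc mice. The KO males were spread widely for Ctsl (SD 76.0 CPM, n = 4) while the Myc males were nearly level (SD 1.68 CPM, n = 4), and the log2 fold change was 1.56 ± 0.22 in females (adjusted p = 1.9e-06) and 1.35 ± 0.20 in males (adjusted p = 2.4e-06).

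Cathepsins C, H and Z are cysteine proteases that work from the ends of a chain. Cathepsin C removes dipeptides from the amino end and activates the serine proteases of granulocytes and cytotoxic lymphocytes. Ctsc had 98.75, 91.41, 56.58 and 107.5 CPM in female KO mice, against 19.09, 14.87 and 14.09 CPM in female Myc mice. Among males Ctsc had 90.65, 124.7, 175.5 and 78.13 CPM in KO mice, against 14.23, 15.99, 13.87 and 18.11 CPM in Myc mice. Male KO mouse 21 was highest for Ctsc and was not the highest of its group for any of the other 9 members. This gave a log2 fold change of 2.46 ± 0.36 in females (adjusted p = 3.7e-06) and 2.92 ± 0.33 in males (adjusted p = 2.6e-08).

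Cathepsin H is an aminopeptidase, and its gene was the second most changed of the 10 in males. Ctsh had 112.4, 100, 61.24 and 81.89 CPM in female KO mice, against 19.47, 12.30 and 10.86 CPM in female Myc mice, and 90.68, 133.6, 94.84 and 52.29 CPM in male KO mice, against 10.30, 13.74, 10.18 and 11.87 CPM in male Myc mice. Its log2 fold change was 2.63 ± 0.36 in females (adjusted p = 1.1e-06) and 3.01 ± 0.32 in males (adjusted p = 1.1e-08). Cathepsin Z, also called cathepsin X, is a carboxypeptidase. Ctsz had 309.7, 280.6, 162.3 and 218.4 CPM in female KO mice, against 47.96, 33.41 and 31.00 CPM in female Myc mice, and 224.6, 354.1, 251.0 and 159.2 CPM in male KO mice, against 31.92, 38.34, 30.17 and 36.57 CPM in male Myc mice. The KO mice ranked alike for Ctsh and Ctsz in females, with mouse 13 highest and mouse 33 lowest. For Ctsz the log2 fold change was 2.69 ± 0.32 in females (adjusted p = 1.7e-07) and 2.85 ± 0.29 in males (adjusted p = 3.8e-09).

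Cathepsin D is the main aspartic protease of the lysosome, and its loss causes a neuronal ceroid lipofuscinosis. Ctsd had 2627, 2376, 1422 and 1684 CPM in female KO mice, against 411.7, 351.9 and 254.1 CPM in female Myc mice. Among males Ctsd had 1793, 3082, 1136 and 1167 CPM in KO mice, against 288.2, 376.9, 278.7 and 317.3 CPM in Myc mice. Male KO mouse 4 stood above the other KO males for Ctsd, and every KO mouse was above every Myc mouse of its sex. The log2 fold change was 2.58 ± 0.35 in females (adjusted p = 1.0e-06) and 2.51 ± 0.31 in males (adjusted p = 1.3e-07). Cathepsin A is a serine carboxypeptidase that also protects lysosomal neuraminidase and beta-galactosidase in a complex. Ctsa had 251.1, 244.5, 154.4 and 178.4 CPM in female KO mice, against 97.85, 96.80 and 87.28 CPM in female Myc mice, and 176.9, 242.6, 161.2 and 143.8 CPM in male KO mice, against 88.57, 95.75, 88.35 and 96.59 CPM in male Myc mice. The spread among KO mice was again wide beside that among Myc mice. Its log2 fold change was 1.14 ± 0.16 in females (adjusted p = 7.5e-07) and 0.97 ± 0.14 in males (adjusted p = 1.3e-06).

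The membrane proteins changed less than most of the proteases and with less spread. Lamp1 had 855.6, 824.9, 561.1 and 689.5 CPM in female KO mice, against 366.7, 392.8 and 358.8 CPM in female Myc mice. Among males Lamp1 had 696.8, 811.2, 665.8 and 639.0 CPM in KO mice, against 327.9, 395.2, 339.2 and 371.6 CPM in Myc mice. On the log2 scale this was 0.98 ± 0.13 in females (adjusted p = 4.4e-07) and 0.97 ± 0.12 in males (adjusted p = 4.1e-08) or 1.97 and 1.96 times. Lamp2 had 256.0, 267.1, 183.3 and 208.1 CPM in female KO mice, against 99.61, 89.92 and 83.62 CPM in female Myc mice, and 227.7, 279.5, 221.2 and 224.9 CPM in male KO mice, against 99.50, 96.86, 93.10 and 101.2 CPM in male Myc mice. Mouse 4 again stood above the other KO males, which were nearly level. The log2 fold change of Lamp2 was 1.33 ± 0.17 in females (adjusted p = 1.6e-07) and 1.29 ± 0.15 in males (adjusted p = 1.8e-08). Over the 10 members the 95% intervals of the log2 fold change ran from 0.71 to 3.65 in females and from 0.68 to 4.16 in males.

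**Figure D1:**
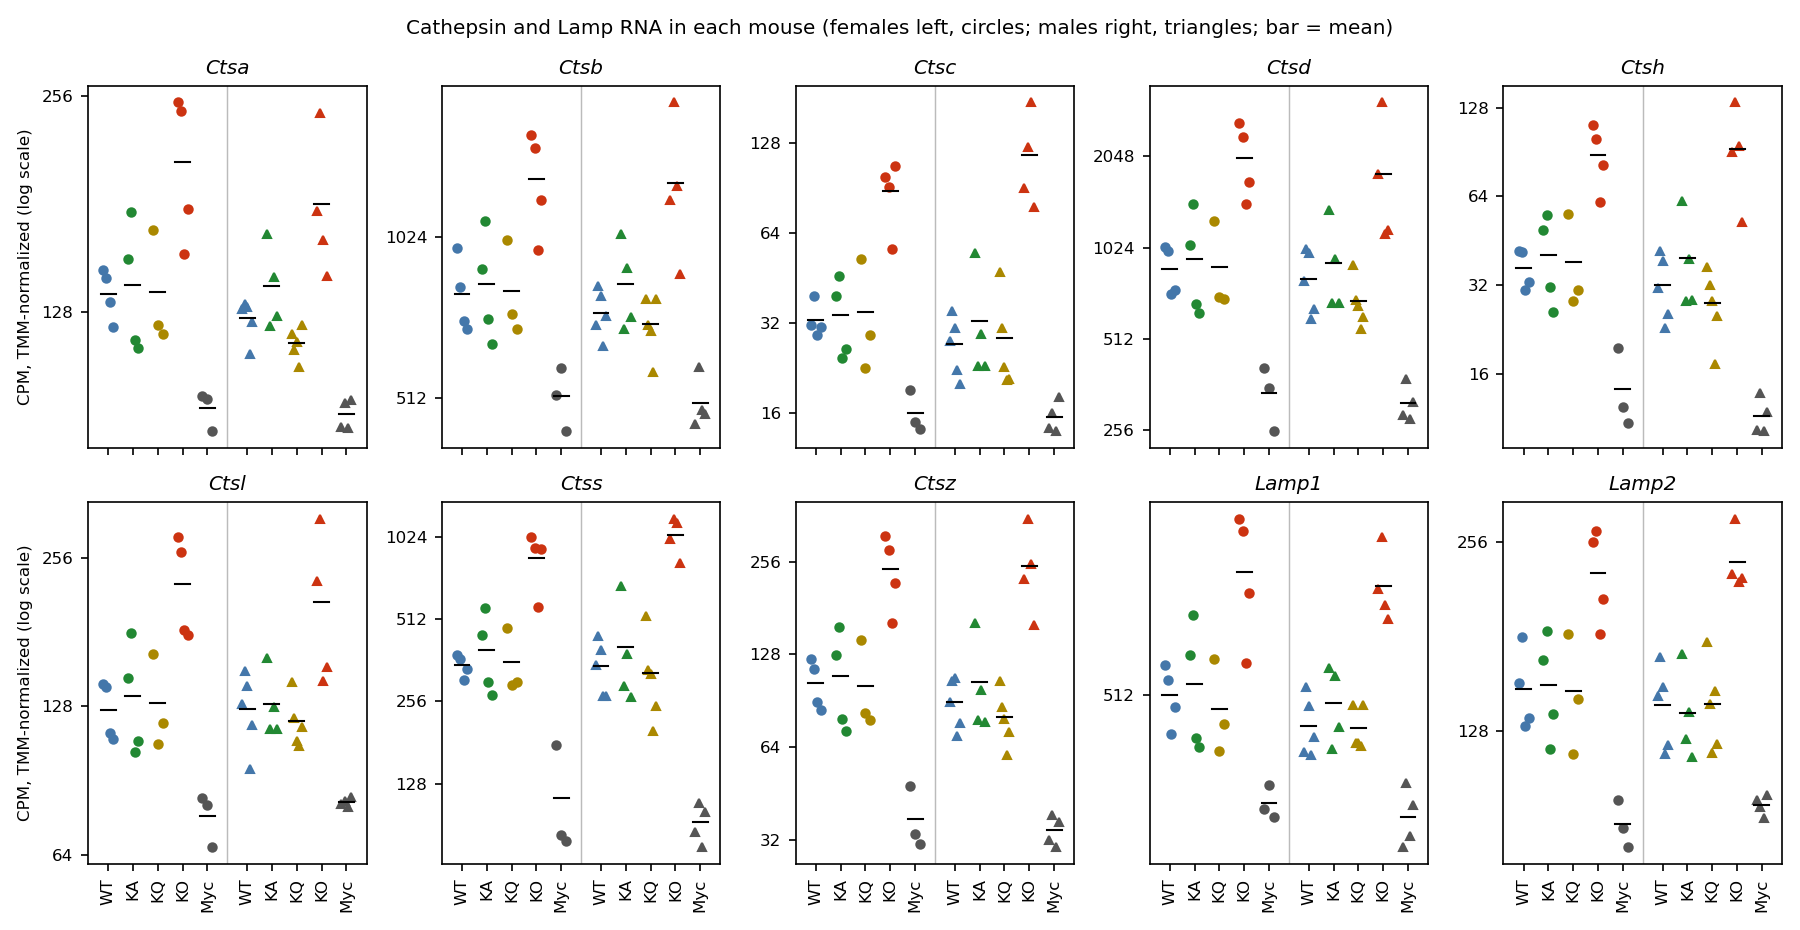
Level of each of the 10 genes in each mouse, in CPM after TMM scaling on a log axis that differs between panels, for H2A.Z.1 WT, KA, KQ, H2A.Z KO and Myc mice, with females as circles on the left and males as triangles on the right; bars are group means. In every panel the KO mice of a sex lie above its Myc mice, as for Ctss with 569.2 to 1019 against 79.11 to 177.6 CPM in females, and the replacement groups lie mostly between them.

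Per kilobase of exon, Ctsd was the most abundant member in KO and Myc mice alike, with 733 and 123 CPM per kb in females and 649 and 114 in males. The length joins all annotated exons of a gene, and the order depends on it. By CPM alone Ctsb (516.2 and 502.8) stood above Ctsd (339.2 and 315.3) in Myc females and males. The order below it was not the same in KO and Myc mice. In KO females Ctsb (171), Ctss (162) and Lamp1 (141 CPM per kb) were close together, whereas in Myc females Lamp1 (71.5) and Ctsb (67.3) were close together and Ctss stood at 21.4 CPM per kb. In males Ctss (196) stood above Ctsb (168) and Lamp1 (135 CPM per kb) in KO mice, against 17.5, 65.5 and 68.8 CPM per kb in Myc mice. Ctsc and Ctsh were at 14.2 and 17.8 CPM per kb in KO females and at 2.56 and 2.84 in Myc females. Lamp2 was at 18 CPM per kb in KO females and at 7.17 in Myc females, above both of them in Myc mice and level with Ctsh in KO mice. Together the 10 genes took 0.432% to 0.740% of a library's counts in KO females against 0.143% to 0.184% in Myc females, and 0.431% to 0.835% in KO males against 0.149% to 0.181% in Myc males.

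The genes lie at chr2:164674778-164682961 (Ctsa, plus strand), chr14:63358384-63383372 (Ctsb, plus), chr7:87927092-87960096 (Ctsc, plus), chr7:141929646-141941775 (Ctsd, minus) and chr9:89936205-89958148 (Ctsh, plus) on GRCm39. The others lie at chr13:64507151-64518704 (Ctsl, minus), chr3:95433963-95463717 (Ctss, plus), chr2:174267304-174280832 (Ctsz, minus), chr8:13209121-13227360 (Lamp1, plus) and chrX:37488520-37545340 (Lamp2, minus). All 10 are annotated as protein-coding. Exons of genes on the opposite strand cover 49.2% of the exonic bases of Lamp1 (Grtp1), 29.2% of those of Ctsz (Nelfcd), 26.1% of those of Ctsl (the lncRNA Gm47123), 24.3% and 12.6% of those of Ctsa (Pltp and Neurl2) and 15.4% of those of Ctsb (Fdft1). Whether counting used the strand is not given in the sources used here, so reads from such stretches may belong to either gene. Transcripts annotated on the same strand cover 29.2% of the exonic bases of Ctsd (Gm49369) and 5.92% of those of Ctsl (Gm49230), and neither of these nor Gm47123 has a row of its own in the count table. No exon of another gene overlaps those of Ctsc, Ctsh, Ctss and Lamp2.

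The replacement groups were compared with H2A.Z KO mice to see how the genes stood when H2A.Z.1 was put back. In females all 10 genes were lower in H2A.Z.1 WT, KA and KQ mice than in KO mice, where 9.17%, 9.62% and 7.63% of all genes tested passed in that direction. In males 10, 9 and 10 were lower in WT, KA and KQ mice, with 12%, 9.94% and 12.7% of all genes. The exception was Ctsa in KA males, with a log2 fold change of -0.38 ± 0.14 (adjusted p = 0.0625). It passed with the filterByExpr filter, with DESeq2, with the range of the number in the sample title as a covariate, without KA mouse 5, without KO mouse 42 and without the mice above 1000 CPM of Ttr, a marker of the choroid plexus, and under the other settings it did not. Median log2 fold changes over the 10 were -1.03, -0.93 and -1.0 in WT, KA and KQ females and -0.98, -0.89 and -1.14 in WT, KA and KQ males, whereas those over all genes were between -0.02 and 0.01.

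Ctsc fell furthest in all 6 of these comparisons, to 0.37, 0.384 and 0.392 of the KO level in WT, KA and KQ females and to 0.232, 0.278 and 0.242 in WT, KA and KQ males. It had 31.44, 39.56, 29.09 and 31.02 CPM in WT females, 39.56, 46.16, 24.40 and 26.19 in KA females and 52.41, 22.61 and 29.23 in KQ females, against 56.58 to 107.5 CPM in KO females. In males it had 27.84, 35.03, 30.67, 22.32 and 19.98 CPM with WT, 54.95, 23.01, 29.48 and 22.89 with KA and 47.47, 30.73, 22.82, 20.63 and 20.80 with KQ, against 78.13 to 175.5 CPM in KO males. No replacement mouse reached the KO range of its sex for Ctsc, and KQ mouse 17 in females came nearest. On the log2 scale Ctsc was at -1.43 ± 0.31, -1.38 ± 0.31 and -1.35 ± 0.34 in WT, KA and KQ females (adjusted p = 0.00180, 0.00293 and 0.00831). In males it was -2.11 ± 0.29 with WT, -1.85 ± 0.31 with KA and -2.05 ± 0.29 with KQ (adjusted p = 4.0e-06, 0.00012 and 5.5e-06).

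Ctss had 377.8, 366.3, 307.4 and 336.1 CPM in WT females, 447.7, 561.8, 301.0 and 271.2 in KA females and 477.0, 294.6 and 302.1 in KQ females, against 569.2 to 1019 CPM in KO females. In males it had 347.7, 445.8, 396.2, 267.1 and 269.0 CPM with WT, 676.6, 291.3, 382.5 and 264.8 with KA and 527.8, 334.0, 322.3, 199.8 and 247.2 with KQ, against 817.8 to 1194 CPM in KO males. KA mice 16 in females and 5 in males were the highest of their groups, yet still under every KO mouse of their sex. On the log2 scale Ctss was at -1.31 ± 0.30, -1.12 ± 0.30 and -1.26 ± 0.33 in WT, KA and KQ females (adjusted p = 0.00301, 0.0106 and 0.0109). In males it was -1.59 ± 0.28, -1.37 ± 0.30 and -1.68 ± 0.28 with WT, KA and KQ (adjusted p = 9.3e-05, 0.00174 and 4.9e-05).

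Ctsd had 1032, 997.6, 721.5 and 745.0 CPM in WT females, 1043, 1426, 669.5 and 622.1 in KA females and 1258, 702.5 and 691.1 in KQ females, against 1422 to 2627 CPM in KO females. In males it had 797.8, 1015, 980.9, 597.8 and 644.1 CPM with WT, 1360, 671.9, 937.7 and 673.9 with KA and 900.1, 688.3, 659.5, 552.9 and 606.2 with KQ, against 1136 to 3082 CPM in KO males. KA mouse 16 reached the lowest KO female and KA mouse 5 stood above 2 of the KO males, so KA and KO mice overlapped in both sexes. The log2 fold change was -1.21 ± 0.30, -1.11 ± 0.30 and -1.20 ± 0.33 in WT, KA and KQ females (adjusted p = 0.00511, 0.0107 and 0.0143) and -1.15 ± 0.28, -0.98 ± 0.30 and -1.40 ± 0.28 in WT, KA and KQ males (adjusted p = 0.00296, 0.0213 and 0.00038).

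The smallest log2 fold changes against KO mice were those of Lamp1 in females and in KQ males, and those of Ctsa in WT and KA males. Lamp1 had 558.3, 534.9, 456.1 and 493.4 CPM in WT females, 575.4, 645.7, 451.3 and 439.7 in KA females and 568.0, 434.3 and 470.6 in KQ females, against 561.1 to 855.6 CPM in KO females. In males it had 433.4, 524.2, 495.0, 429.2 and 452.9 CPM with WT, 552.8, 437.5, 541.1 and 466.0 with KA and 496.4, 444.3, 444.2, 441.0 and 497.0 with KQ, against 639.0 to 811.2 CPM in KO males. The ranges were apart in the 3 comparisons of males and in WT females, and overlapped in KA and KQ females. The log2 fold change of Lamp1 was -0.52 ± 0.12, -0.47 ± 0.12 and -0.58 ± 0.13 in WT, KA and KQ females (adjusted p = 0.00232, 0.00593 and 0.00326) and -0.59 ± 0.11, -0.49 ± 0.12 and -0.60 ± 0.11 in WT, KA and KQ males (adjusted p = 0.00015, 0.00319 and 0.00012).

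Ctsh and Ctsz stood below every KO mouse of their sex in all replacement mice except one. Ctsh had 41.78, 41.53, 30.67 and 32.65 CPM in WT females, 49.20, 55.54, 31.47 and 25.84 in KA females and 55.91, 28.14 and 30.66 in KQ females, against 61.24 to 112.4 CPM in KO females. Males had 31.37, 41.72, 38.61, 22.90 and 25.41 CPM of Ctsh with WT, 61.68, 28.33, 39.27 and 28.53 with KA and 36.83, 32.01, 28.23, 17.20 and 25.07 with KQ, against 52.29 to 133.6 CPM in KO males. The exception was KA mouse 5, a male, which stood above the lowest KO male for both genes. Ctsz had 123.6, 114.6, 89.67 and 84.52 CPM in WT females, 127.3, 157.1, 78.93 and 72.02 in KA females and 142.8, 82.62 and 78.38 in KQ females, against 162.3 to 309.7 CPM in KO females. Males had 89.83, 104.6, 106.9, 69.27 and 76.32 CPM of Ctsz with WT, 161.6, 78.59, 97.99 and 77.25 with KA and 104.8, 86.50, 78.78, 60.12 and 71.55 with KQ, against 159.2 to 354.1 CPM in KO males. In each of the 3 female groups the mice numbered 20 and below were the higher ones for both genes.

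Ctsb overlapped with KO mice most often. It had 974.9, 824.3, 713.8 and 690.2 CPM in WT females, 890.0, 1093, 720.1 and 646.5 in KA females and 1010, 734.3 and 690.0 in KQ females, against 967.4 to 1586 CPM in KO females. Males had 700.7, 828.1, 794.0, 642.0 and 728.6 CPM of Ctsb with WT, 1034, 688.6, 896.6 and 726.8 with KA and 784.3, 700.4, 683.4, 572.4 and 783.9 with KQ, against 873.4 to 1821 CPM in KO males. One mouse of each female replacement group, and KA mice 5 and 26 in males, reached the KO range. Ctsl had 141.8, 139.9, 113.0 and 109.8 CPM in WT females, 146.1, 180.0, 103.3 and 109.0 in KA females and 163.5, 107.4 and 118.3 in KQ females, against 178.2 to 282.0 CPM in KO females. Males had 129.3, 150.8, 140.7, 95.45 and 117.3 CPM of Ctsl with WT, 160.2, 115.3, 127.4 and 115.2 with KA and 143.6, 121.5, 109.0, 106.5 and 116.2 with KQ, against 143.8 to 307.4 CPM in KO males. For Ctsl KA mouse 16 in females, and WT mouse 10 and KA mouse 5 in males, lay inside the KO range.

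Ctsa had 146.8, 142.8, 132.1 and 121.9 CPM in WT females, 152.0, 176.4, 117.2 and 113.9 in KA females and 166.8, 123.0 and 119.4 in KQ females, against 154.4 to 251.1 CPM in KO females. Males had 129.5, 131.6, 130.3, 112.0 and 124.0 CPM of Ctsa with WT, 164.5, 122.6, 143.3 and 126.4 with KA and 119.4, 113.2, 116.4, 107.4 and 123.0 with KQ, against 143.8 to 242.6 CPM in KO males. KA mouse 16 and KQ mouse 17 in females and KA mouse 5 in males reached the KO range. Lamp2 had 152.9, 180.9, 130.5 and 134.5 CPM in WT females, 166.1, 185.3, 120.1 and 136.5 in KA females and 182.7, 117.9 and 143.9 in KQ females, against 183.3 to 267.1 CPM in KO females. Males had 145.8, 168.1, 150.4, 117.9 and 121.9 CPM of Lamp2 with WT, 170.1, 124.6, 137.3 and 116.3 with KA and 177.7, 141.3, 118.1, 148.5 and 122.4 with KQ, against 221.2 to 279.5 CPM in KO males. The ranges of Lamp2 touched in KA females only, through mouse 16.

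Among Ctsa, Ctsb, Ctsh, Ctsl and Ctsz the log2 fold changes ran from -1.28 (Ctsh) to -0.61 (Ctsa) in WT females, from -1.16 (Ctsz) to -0.57 (Ctsa) in KA females and from -1.26 (Ctsz) to -0.60 (Ctsa) in KQ females. In males they ran from -1.54 (Ctsh) to -0.53 (Ctsa) with WT, from -1.25 (Ctsz) to -0.38 (Ctsa) with KA and from -1.74 (Ctsh) to -0.65 (Ctsa) with KQ. Lamp2 was at -0.61, -0.59 and -0.63 in WT, KA and KQ females and at -0.76, -0.80 and -0.75 in WT, KA and KQ males. Counting over all 10, replacement and KO mice did not overlap in 9, 4 and 7 genes in WT, KA and KQ females and in 9, 4 and 10 genes in WT, KA and KQ males. The share of all genes without overlap was not counted. Several of the counts of genes that passed against KO mice rested on single mice. In KQ females 10 genes passed with all mice, 1 without KQ mouse 37, 3 without KQ mouse 38 and 5 without KO mouse 13, and none when only KQ and KO females were fitted. In KA females 6 passed without KA mouse 36. The share of all genes that passed in these fits was not counted. Within the ranges of the sample number that stands first in each title (1 to 20, 21 to 40 and 41 to 46), the log2 ratio to KO mice was negative for all 10 members in each replacement group.

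Replacement mice were next set against Myc mice, to see how far the genes stayed from the control level. In females 9, 10 and 7 of the 10 were higher in WT, KA and KQ mice than in Myc mice, where 5.87%, 4.42% and 3.59% of all genes passed in that direction. In males 9, 10 and 6 were higher, with 3.66%, 5.15% and 3.48% of all genes. Median log2 fold changes were 0.87, 0.95 and 0.93 in WT, KA and KQ females and 0.72, 0.90 and 0.71 in WT, KA and KQ males. For 10, 10 and 10 genes in females and 10, 10 and 9 in males no replacement mouse of that kind overlapped the Myc mice, and the exception was Ctsb in KQ males. Here too overlap was not counted over all genes. The comparisons with KO and with Myc mice share the replacement mice.

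Ctss stayed furthest above Myc mice in every replacement group, at 3.05, 3.48 and 3.15 times in WT, KA and KQ females and at 3.72, 4.36 and 3.52 times in WT, KA and KQ males. Its log2 fold changes over Myc were 1.61 ± 0.34, 1.80 ± 0.34 and 1.66 ± 0.35 in females (adjusted p = 0.00427, 0.00175 and 0.00670) and 1.90 ± 0.30, 2.1 ± 0.31 and 1.82 ± 0.30 in males (adjusted p = 0.00019, 4.2e-05 and 0.00035), against KO over Myc values of 2.92 and 3.49. Ctsz, Ctsh and Ctsd also passed in all 6 comparisons, with log2 fold changes of 1.11 to 1.78. Lamp2 passed in all 6 as well, with 0.70 to 0.74 in females and 0.489 to 0.535 in males.

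The genes that did not pass against Myc were Ctsc in WT and KQ mice of both sexes, Ctsb in KQ mice of both sexes, Lamp1 in KQ females, and Ctsa and Ctsl in KQ males. For Ctsc the log2 fold change over Myc was 1.03 ± 0.34 in WT females (adjusted p = 0.0555), 1.11 ± 0.36 in KQ females (adjusted p = 0.0632), 0.81 ± 0.30 in WT males (adjusted p = 0.119) and 0.87 ± 0.30 in KQ males (adjusted p = 0.0907). Ctsb was at 0.65 ± 0.21 in KQ females (adjusted p = 0.0546) and 0.49 ± 0.17 in KQ males (adjusted p = 0.0948), and Lamp1 at 0.40 ± 0.14 in KQ females (adjusted p = 0.0774). Ctsa was at 0.33 ± 0.14 in KQ males (adjusted p = 0.167) and Ctsl at 0.54 ± 0.19 (adjusted p = 0.0925). With the range of the number in the sample title as a covariate, 8 of these 9 differences passed, all except that of Ctsc in WT males. All of these values were positive, so that a missed threshold does not show a return to the level of Myc mice.

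**Figure D2:**
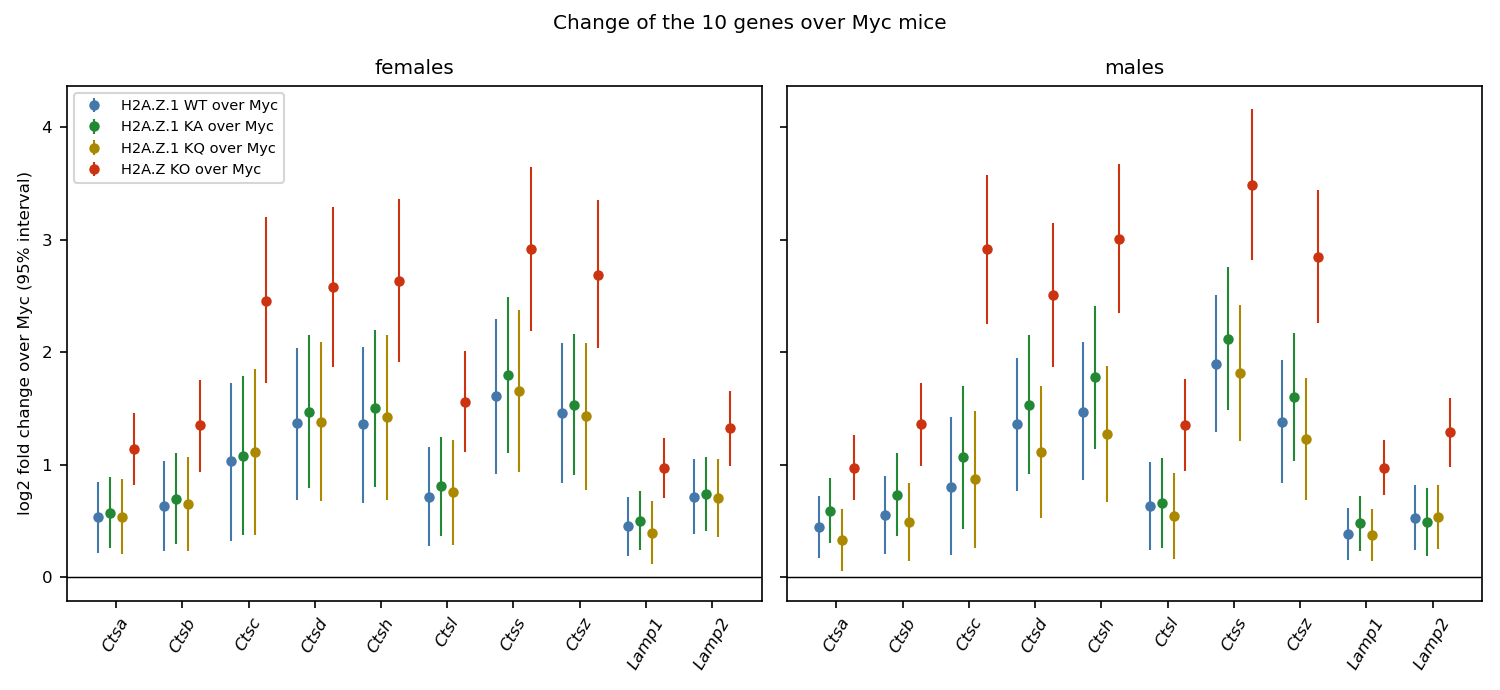
Log2 fold change over Myc of each of the 10 genes in H2A.Z.1 WT, KA, KQ and H2A.Z KO mice, females left and males right; points are edgeR estimates and lines their 95% intervals. The KO values run from 0.98 (Lamp1) to 2.92 (Ctss) in females and from 0.97 (Lamp1 and Ctsa) to 3.49 (Ctss) in males, and the replacement values of a gene lie between its KO value and 0.

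The counts against Myc were less stable than those of KO over Myc, which stayed at 10 in each sex without any single mouse. In WT females the count was 9 with all mice, 3 without Myc mouse 32, 4 without Myc mouse 31 and 5 without Myc mouse 11, WT mouse 19 or WT mouse 20. In KA females it was 10 with all mice, 4 without Myc mouse 32, 5 without KA mouse 16 and 6 without KA mouse 15. In KQ females it was 7 with all mice, 0 without KQ mouse 17 or Myc mouse 32 and 2 without Myc mouse 31. In WT males it was 9 with all mice, 4 without Myc mouse 1, Myc mouse 23, WT mouse 10 or WT mouse 29 and 5 without Myc mouse 41. In KA males it was 10 with all mice and 4 without KA mouse 5, and in KQ males 6 with all mice and 3 without KQ mouse 8 or Myc mouse 23. How many of all genes passed without each mouse was not counted.

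The alanine and glutamine forms of H2A.Z.1 were compared with each other because they stand for the form that cannot be acetylated and the form that resembles acetylation. None of the 10 genes passed between KA and KQ mice in females or in males, and 0% of all genes tested passed in either sex. At an unadjusted p under 0.05, edgeR counted 595 genes of the whole table in females and 2993 in males, none of them a member, and DESeq2 called 8 and 24 genes. Medians of KA over KQ over the 10 were 0.07 and 0.26 in females and males on the log2 scale. The smallest p was that of Ctsa in males, with 164.5, 122.6, 143.3 and 126.4 CPM in KA mice, against 119.4, 113.2, 116.4, 107.4 and 123.0 CPM in KQ mice. The lowest KA mouse lay inside the KQ range of Ctsa while the other 3 lay above it, and the log2 fold change was 0.26 ± 0.13 (adjusted p = 0.488). The 95% intervals of KA over KQ ran from -0.70 (Ctsc) to 0.80 (Ctss) in females and from -0.40 (Ctsc) to 1.08 (Ctsh) in males, which leaves room for differences of those sizes.

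**Figure D3:**
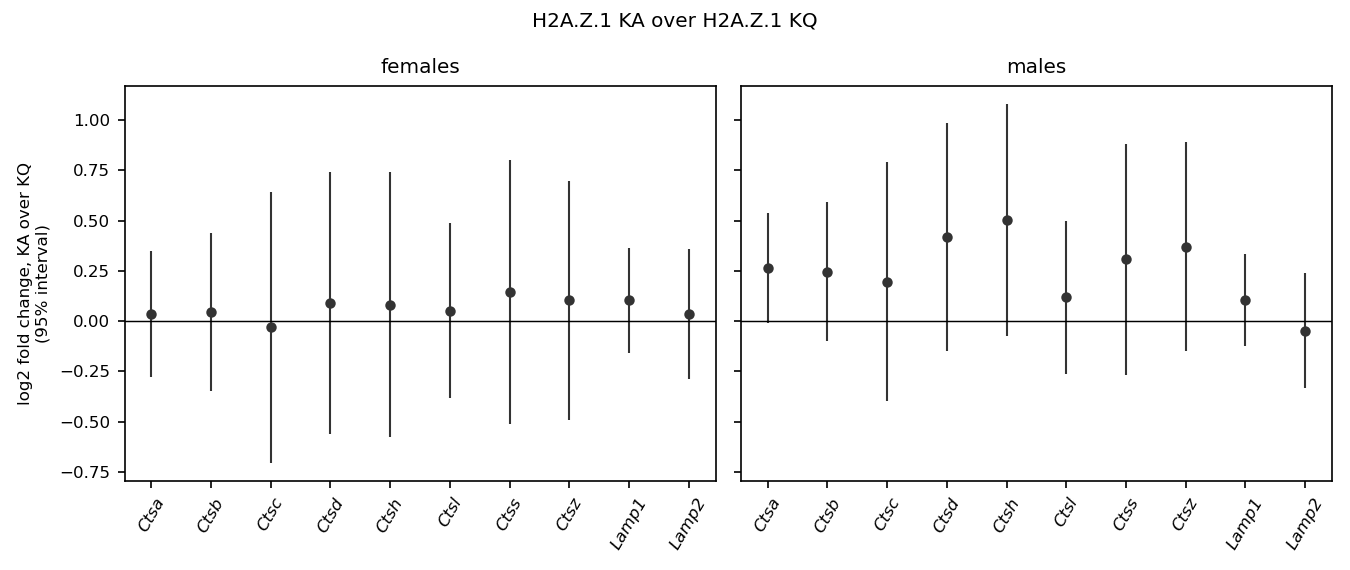
Log2 fold change of H2A.Z.1 KA over H2A.Z.1 KQ for each of the 10 genes, females left and males right; points are edgeR estimates and lines 95% intervals. Every interval holds 0, and the widest reach 0.80 in females and 1.08 in males.

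No difference between the sexes passed the test. None of the 10 genes passed between Myc females and Myc males, where 0.0457% of all genes did (edgeR; 1525 genes at an unadjusted p under 0.05, and 87 called by DESeq2), and the 95% intervals ran from -0.65 to 1.00 on the log2 scale. The difference between the sexes in KO over Myc, tested as an interaction, passed for none of the 10 genes and for 0% of all genes (edgeR; 1569 genes at an unadjusted p under 0.05, and 30 called by DESeq2). It was furthest from 0 for Ctss, at -0.57 ± 0.44 for females minus males, and the 95% intervals over the 10 ran from -1.47 to 0.96. The interaction for KA over KQ also passed for none of the 10 and for 0% of all genes (edgeR; 1620 genes at an unadjusted p under 0.05, and 10 called by DESeq2), with 95% intervals from -1.30 to 0.71.

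Within groups the 10 genes varied together from mouse to mouse. After the mean of each group was subtracted from log2 CPM, the Pearson correlation over the 40 mice was between 0.57 (Ctsc with Ctsl) and 0.98 (Ctsh with Ctsz) in the 45 pairs of members, with a median of 0.84; the genes of a pair share each library, its depth and its mix of cells. The SD of these deviations was 0.17 for Lamp1, 0.21 for Ctsa and 0.22 for Lamp2, 0.27 for Ctsb and 0.29 for Ctsl, and 0.39 to 0.43 for Ctsz, Ctsd, Ctss, Ctsc and Ctsh. Part of the shared variation followed the sample number. Mice numbered 1 to 20 were higher on average than mice numbered 21 to 40 for 10 of 10 members in WT, KA, KQ and KO females and in WT, KA and KQ males, for 9 in Myc females, for 8 in KO males and for 1 in Myc males. The titles give no meaning for the numbers. All 10 members were higher in KO than in Myc mice inside each range, which held only 1 or 2 mice of a group. The ratios that follow are of mean CPM and carry no test. Fits on numbers 1 to 20 or 21 to 40 alone are among the alternatives in the closing section. Median log2 ratios were 2.01 (2 KO against 1 Myc) and 1.83 (2 against 2) in females numbered 1 to 20 and 21 to 40. In males they were 2.32 (2 KO against 1 Myc), 1.52 (1 against 2) and 1.52 (1 against 1) for numbers 1 to 20, 21 to 40 and 41 to 46.

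**Figure D4:**
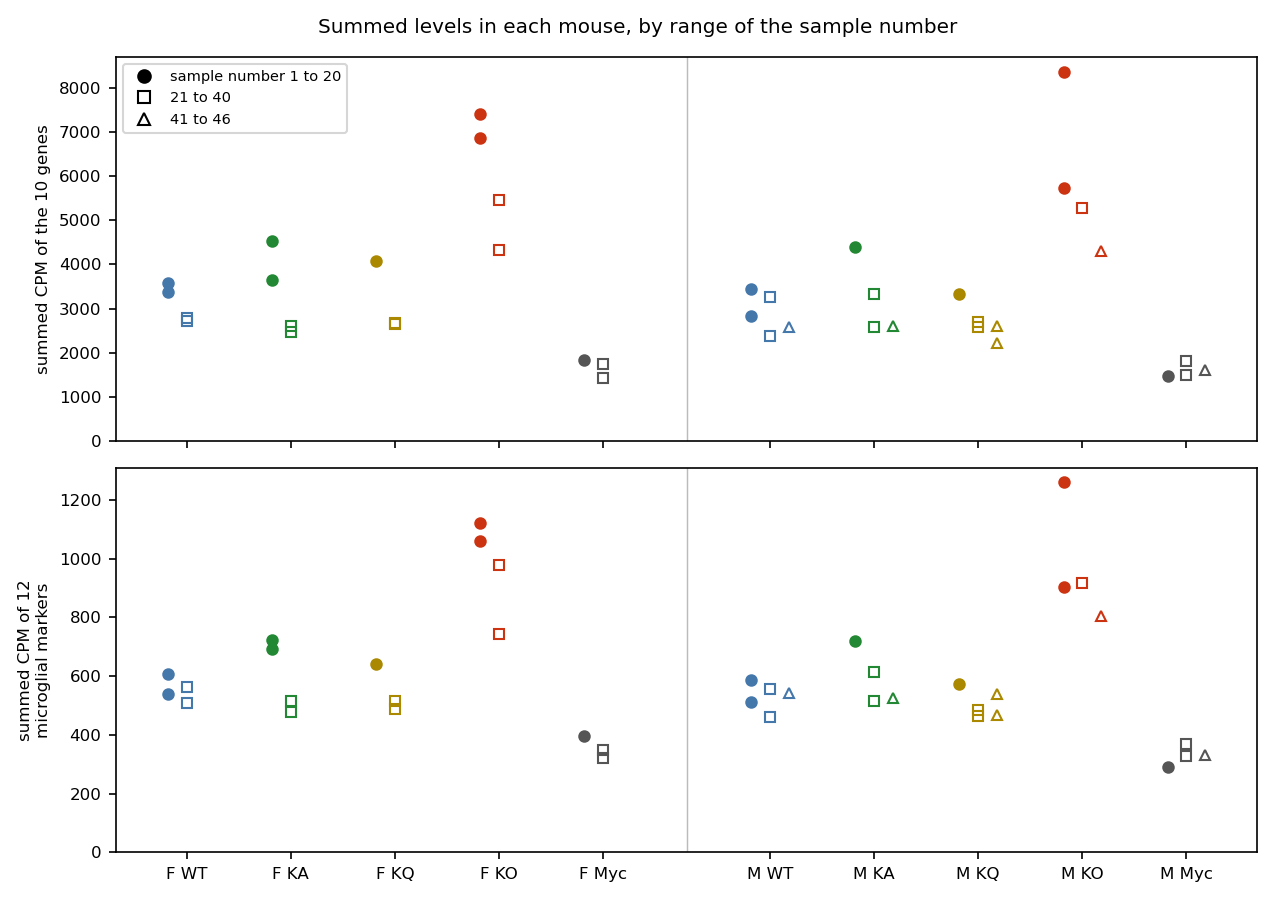
Summed CPM of the 10 genes (upper panel) and of 12 microglial markers (lower panel) in each mouse, by group, females left and males right, with the range of the sample number as the symbol. KO females are at 745 to 1120 CPM of microglial markers against 321 to 398 in Myc females, KO mice lie above the Myc mice of their sex in both panels, and filled circles (numbers 1 to 20) lie above the squares in most groups.

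Of all other genes with a mean of at least 1 CPM, those whose deviations were most like the mean of the members' were Axl (r = 0.97), Cd53 and C1qb (0.96 each), Pros1, Tnfrsf1a, Sgpl1, Npc2, Plek, C3ar1 and Cryzl2 (0.95 to 0.96), over 40 mice and 15927 genes. Axl is a receptor kinase for apoptotic cells and Pros1 encodes one of its ligands, protein S. C1qb encodes a chain of complement C1q, C3ar1 a complement receptor, and Cd53 and Plek proteins of leukocytes. Npc2 encodes a cholesterol carrier of the lysosomal lumen. All of these 10 genes were themselves higher in KO than in Myc mice. Axl averaged 133 CPM in KO females and 32.8 CPM in Myc females, and 140 CPM in KO males and 34.3 CPM in Myc males (log2 fold changes 2.02 and 2.03, adjusted p = 9.3e-08 and 4.1e-09, edgeR).

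Markers of other cells moved with the members, and their part in the result was not tested. Of 12 microglial markers 11 were higher in KO than in Myc mice in each sex, the exception being Fcrls, and the list's median log2 fold change was 1.31 (females) and 1.56 (males). Their summed level was 745 to 1120 CPM in KO females against 321 to 398 in Myc females, and 805 to 1260 in KO males against 291 to 368 in Myc males. In the replacement groups it was 510 to 608 in WT, 479 to 723 in KA and 487 to 640 in KQ females, and 462 to 586 in WT, 516 to 720 in KA and 463 to 573 in KQ males. In females and males Cx3cr1, the fractalkine receptor, was at log2 fold changes of 1.80 and 1.83 and Csf1r at 1.58 and 1.73. P2ry12, a purine receptor of resting microglia, was at 0.46 and 0.53, and Ctss at 2.92 and 3.49. Of the macrophage and monocyte markers with the highest mean CPM, Lyz2 (4.10 and 4.44) and Ms4a6c (4.27 and 4.44) stood above Ctss and Mrc1 (1.67 and 1.65) below it.

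Of 12 markers of macrophages and monocytes 8 were higher in KO than in Myc females and 9 in males. Their summed level was 111 to 463 CPM in KO and 14.2 to 33.0 CPM in Myc females, and 153 to 347 CPM in KO and 11.6 to 19.8 CPM in Myc males. All 12 markers of T and NK cells were higher in each sex, at 26.2 to 175 CPM in KO and 1.92 to 5.00 CPM in Myc females, and 68.7 to 257 CPM in KO and 1.11 to 2.05 CPM in Myc males. B and plasma cell markers were higher for 9 of 10 genes in females and 10 in males, at 101 to 2470 CPM in KO and 12.6 to 32.4 CPM in Myc females, and 589 to 1160 CPM in KO and 13.0 to 26.5 CPM in Myc males. Astrocyte markers were higher for 7 and 6 of 10 genes in females and males, with Gfap at log2 fold changes of 3.06 and 2.90, oligodendrocyte markers for 5 and 4 of 10, and endothelial markers for 8 and 5 of 10. Neuronal markers were lower for 11 of 12 genes in females and 10 in males, with summed levels of 5350 to 9710 CPM in KO and 13500 to 14000 CPM in Myc females, and 6450 to 10600 CPM in KO and 13400 to 15000 CPM in Myc males. Choroid plexus markers were higher for 10 of 10 genes in KO females, at 344 to 5860 CPM in KO and 187 to 235 CPM in Myc females, and for none in KO males, at 331 to 1280 CPM in KO and 221 to 995 CPM in Myc males. Ttr, which marks that tissue, was above 1000 CPM in KO mice 14 and 33, WT mouse 20 and KQ mouse 17, all of them female, and all 10 members passed in KO over Myc without these mice. No marker of any of these lists was without counts in all mice of a group.

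The other genes of the lysosome were read from lists by role, beside the 18.1% and 17.2% of all genes that were higher and the 16.5% and 14.4% that were lower in KO than in Myc females and males. Of 6 other cathepsins and legumain tested, 5 were higher in KO than in Myc females and 4 in males, and none was lower. Lgmn, the asparaginyl endopeptidase that processes several cathepsins, averaged 209 CPM in KO females against 73.0 in Myc females and 261 CPM in KO males against 73.2 in Myc males (log2 fold changes 1.52 ± 0.16 and 1.83 ± 0.15, adjusted p = 8.6e-09 and 1.4e-11). Ctso was at 1.03 and 0.88 and Ctsw, a cathepsin of cytotoxic lymphocytes, at 3.92 and 4.65, from only 0.407 and 0.315 CPM in Myc females and males. Ctsf did not pass in either sex (-0.11 and -0.19) and Ctsk passed in females and not in males (0.94 and 0.35), although the difference between the sexes, tested as an interaction, did not pass. The protein inhibitors of cathepsins were higher for 6 of 9 tested genes in each sex and lower for none. Cst7, which encodes cystatin F, an inhibitor of cathepsins C, H and L made by immune cells, averaged 92.6 CPM in KO against 2.59 in Myc females and 118 CPM in KO against 1.17 in Myc males (log2 fold changes 5.04 ± 0.67 and 6.66 ± 0.65, adjusted p = 9.9e-07 and 2.5e-09). Cstb, the cytosolic inhibitor cystatin B, was at 0.76 and 0.94.

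Soluble hydrolases and their activators were mostly higher as well. Of 41 tested, 31 were higher and 2 lower in KO than in Myc females (Acp2 and Ids lower), and 30 were higher and 1 lower in males (Ids), with medians of 0.78 and 0.72. Grn, the precursor of granulins, was at 2.02 and 2.42, Man2b1, a mannosidase, at 1.35 and 1.41, and Scpep1, a carboxypeptidase, at 1.49 and 1.62. In WT, KA and KQ mice 24, 28 and 22 of these 41 were lower than in KO mice in females and 27, 25 and 28 in males. Other lysosomal membrane proteins were mixed, with 15 higher and 8 lower of 33 in females and 14 higher and 6 lower in males, and a median of 0.16 in females and -0.02 in males. Cd68, a heavily glycosylated membrane protein of phagocytes and a relative of the LAMPs, was at 2.77 and 2.61, Slc11a1, a metal transporter of phagosomes, at 3.07 and 3.59, and Laptm5, of leukocytes, at 2.28 and 2.57. Against these, Lamp1 (0.98 and 0.97) and Lamp2 (1.33 and 1.29) stood closer to Cd164 (0.90 and 0.70).

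**Figure D5:**
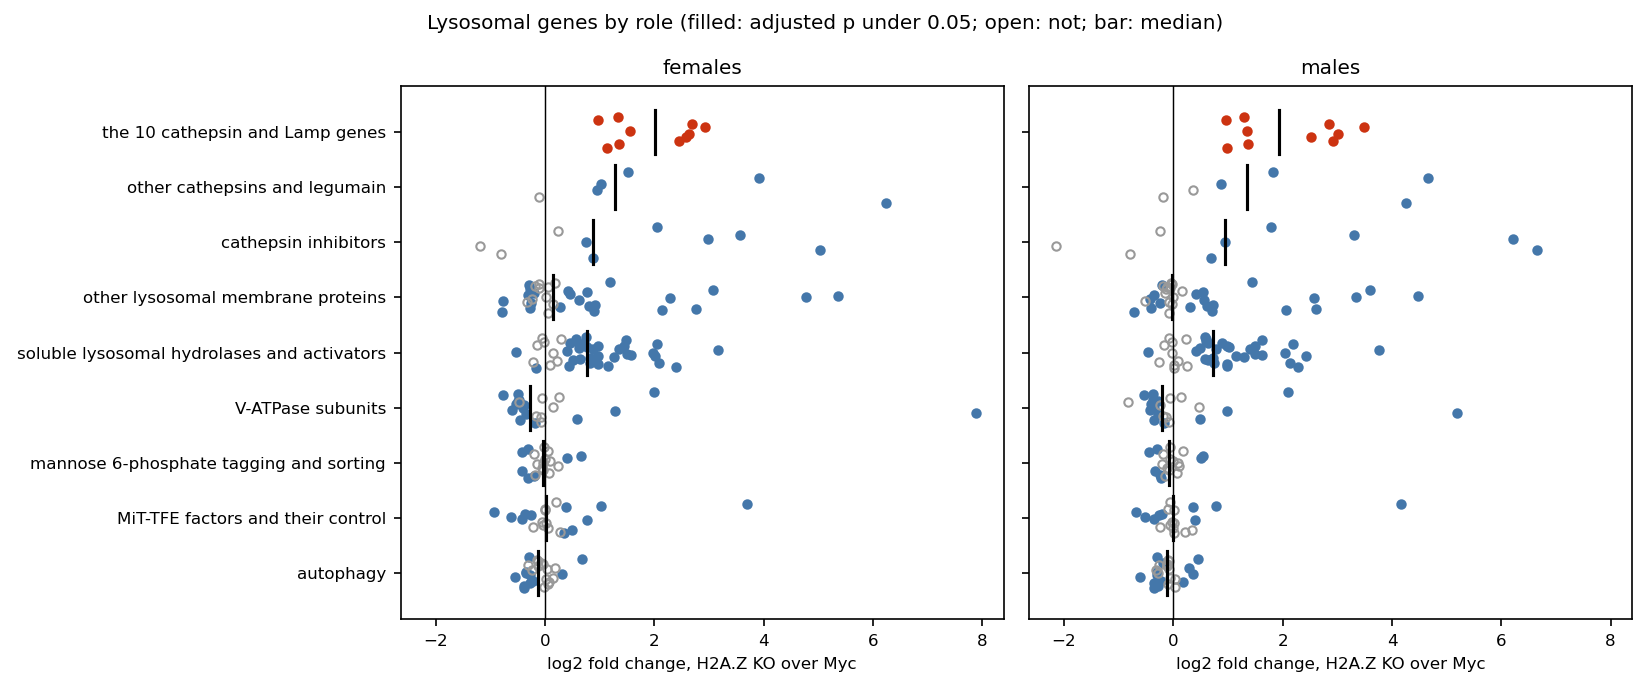
Log2 fold change between H2A.Z KO and Myc mice (KO over Myc) for the genes of 9 lists by role, females left and males right; each point is a gene, filled where its adjusted p is under 0.05, and the bar is the list's median. The 10 cathepsin and Lamp genes lie at 0.97 to 3.49 with medians of 2.01 and 1.93, and the medians of the V-ATPase (-0.27 and -0.22) and autophagy (-0.12 each) lists lie under 0.

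The V-ATPase, the pump that acidifies the lysosome, did not follow the proteases. Of 22 subunits tested, 4 were higher and 11 lower in KO than in Myc females and 4 were higher and 10 lower in males, with medians of -0.27 and -0.22. The 4 higher ones were the same in both sexes: Tcirg1, the a3 subunit known from osteoclasts and macrophages (1.99 and 2.10), Atp6v0e (1.28 and 0.98), Atp6v0a2 (0.58 and 0.49) and Atp6v0d2 (7.89 and 5.19, with no level given here). Genes of mannose 6-phosphate tagging and sorting were higher for 2 and lower for 5 of 19 in each sex. The 2 higher ones in females and males were Nagpa (0.66 and 0.55), which exposes the tag, and M6pr (0.41 and 0.51), the cation-dependent receptor, whereas Sort1, another receptor that carries lysosomal proteins, was lower (-0.43 and -0.44).

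Of 20 MiT-TFE factors and regulators 6 were higher and 5 lower in females and 4 were higher and 5 lower in males. Tfeb averaged 14.0 CPM in KO against 6.86 in Myc females and 12.2 CPM in KO against 7.07 in Myc males (1.03 and 0.79, adjusted p = 3.0e-05 and 0.00026), Tfe3 was at 0.39 and 0.37, and Tfec, a myeloid member of the family, was at 3.70 and 4.17 from less than 1 CPM. Mtor, the kinase that holds TFEB in the cytoplasm, was lower (-0.43 and -0.35). Rragb, which had the smallest p of this list in each sex, was lower too (-0.93 and -0.685, adjusted p = 3.6e-08 and 1.1e-06, edgeR). Autophagy genes were higher for 2 and lower for 9 of 25 in females and higher for 4 and lower for 9 in males, with medians of -0.12 in each sex. With DESeq2 size factors in place of TMM the counts of these lysosomal lists moved by at most 1, the median of all genes moved by 0.0153 in females and 0.0177 in males, and of the list medians only that of the MiT-TFE list in males changed sign.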

How the data were processed

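Hippocampal RNA-seq of 40 mice was used, 1 library each. Reads in pairs were checked by the authors with FastQC 0.11.9, aligned with Rsubread against GRCm39 and summed by featureCounts, and the authors tested them with DESeq2 1.38.3; their deposited raw counts per gene and mouse were the input here. A deposited table of the same counts divided by size factors was not used. Counts of genes with a sum of at least 20 over all mice (28449 of 40853) were scaled by TMM and modelled in R 4.3.3 by edgeR 4.0.16 (glmQLFit with robust estimation, glmQLFTest) in one model of 10 groups, with Benjamini-Hochberg adjustment over all genes and a threshold of 0.05. SE is the log2 fold change over the root of F. Chi-square per degree of freedom was 7.52 or more between any mice of one group, so no library was treated as a repeat. Levels per kb used the joined length of all exons of a gene in the GRCm39 annotation, not the length of single transcripts. The scripts were tested on simulated counts.

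Each comparison was repeated with filterByExpr (21918 genes), with no filter (35929 genes), with DESeq2 1.42.0, with its size factors inside edgeR, without robust estimation, with a covariate for the range of the number in the title, on the groups compared alone, and without each mouse in turn. Only numbers 1 to 20, only numbers 21 to 40, and no mice above 1000 CPM of Ttr were added after the data were seen. The 10 members and all lists were chosen with earlier results of these data known. Besides the members, up to 3 genes per lysosomal list and sex with the smallest p, up to 3 per cell type list with the highest mean CPM and the 10 genes most like the members are named; Acp2, Ids, Ctsf, Ctsk, Fcrls and Atp6v0d2 were named after their values were seen.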

Additional observations from a re-analysis of the deposited data

Results flagged for a closer look

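In 1 of the 80 combinations of a gene and a group of 4 or 5 mice, a single mouse stood far from the others. Lamp2 in male H2A.Z KO mouse 4 was at 279 CPM while the other 3 KO males were at 221 to 228 CPM, and the gap was 0.889 of the group's range. A gap is named here when it passes a limit that chance passes in about 1 group of 20, so 1 in 80 is no more than chance gives. The same mouse was the highest KO male for 9 of the 10 members, all except Ctsc, and Lamp2 passed in KO over Myc males without it.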

How the results depend on the processing

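The count of members higher in KO than in Myc mice was 10 in each sex under all alternatives and without any single mouse, and the counts of 0 for KA over KQ, for Myc females over Myc males and for both interactions stayed 0. Fitting only the groups compared left 6 members in KA over KO females, 0 in KQ over KO females, 5 in KA over KO males and 0 in KQ over Myc females. Using only sample numbers 1 to 20 left 1 in KQ over KO females and 0 in KA over KO males. Using only numbers 21 to 40 left 5 in KA over Myc females, 4 in WT over Myc males, 6 in KA over Myc males and 3 in KQ over Myc males. These fits hold fewer mice, and the share of all genes that passed in them was not counted. Without the mice above 1000 CPM of Ttr, 0 passed in KQ over Myc females, from which KQ mouse 17 is then missing. With no filter, which tests more genes, 5 passed in WT over Myc males, and with the number range as a covariate 10 passed in KQ over Myc males; the cause was not tested.

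Leaving out one mouse at a time gave 10 to 10 members in KO over Myc (both sexes), WT over KO females and KQ over KO males, 6 to 10 in KA over KO females, 1 to 10 in KQ over KO females, 7 to 10 in WT over KO males and 6 to 10 in KA over KO males. Against Myc it gave 3 to 9 in WT, 4 to 10 in KA and 0 to 9 in KQ females, and 4 to 9 in WT, 4 to 10 in KA and 3 to 5 in KQ males. Shares of all genes were not counted in the fits that left out a mouse. Of single genes, all 10 in the comparisons with KO or Myc and the one with the smallest p in each other comparison were recomputed, and the sign changed for 2 near 0. Lamp1 in KA over KQ females ran from -0.00646 (without KA mouse 16) to 0.223 (without KQ mouse 17) and was at -0.0225 with numbers 21 to 40, and Ctsh in Myc females over males at -0.0333 with numbers 21 to 40. No paired analysis was possible because the numbers in the titles are unique to each mouse. The lowest raw count of a member was 255, and groups held 3 to 5 mice.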
